A study of Arabidopsis thaliana with 24 samples.

Results

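Rosette leaves of the Arabidopsis thaliana grf6 grf8 double mutant sampled after 4 h of dehydration were compared with leaves of the same mutant sampled after 2 h. Each time point had 4 libraries, so 8 of the study's 24 mRNA libraries entered the comparison, chosen by their titles. The study holds the same 3 times, 0 h, 2 h and 4 h, for wild type (WT), also with 4 libraries each. All plants were 24 days old, having spent 12 days on plates and 12 days in soil, and both mutant groups carry the grf6 and grf8 alleles, so the contrast describes time within 1 genotype. The kind of allele, the number of plants in a library and whether libraries are separate plants are not given in the sources used here, so p-values measure the spread between libraries, which may be technical. Unless said otherwise, that spread was estimated over all 24 libraries in 6 groups, not over the 8 compared alone.

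14-3-3 proteins, the family that GRF6 and GRF8 belong to, dock onto phosphorylated sites of client proteins and alter what those clients do. During water loss plants make abscisic acid (ABA), which binds PYR/PYL receptors, releases SnRK2 kinases from inhibition by clade A PP2C phosphatases, and lets the kinases activate ABF and ABI5 transcription factors. Those factors bind the ABA-responsive element (ABRE), a promoter motif with an ACGT core, upstream of genes such as those for late embryogenesis abundant (LEA) proteins, small hydrophilic proteins that protect cell contents during drying.

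Among the gene lists examined, that of LEA genes held the most risen members between 2 h and 4 h, and the sequences just upstream of the 5 risen LEA genes with the highest level at 4 h are shown here so that matches to the ABRE form ACGTGNC, and their absence, can be read. Other sites with an ACGT core are not marked, so a line without capitals may still hold such a site. Each line gives the 250 bases before the annotated gene start, 5′ to 3′ on the gene's strand, from the RefSeq TAIR10.1 assembly, with every ACGTGNC match on either strand in capitals. RAB18 (AT5G66400) lies on the minus strand and its window is chr5:26519448-26519697. LEA7 (AT1G52690), on the plus strand, has the window chr1:19619474-19619723. AT3G02480, on the plus strand, has the window chr3:511970-512219. LEA4-5 (AT5G06760), on the minus strand, has the window chr5:2090431-2090680. AT2G44060, on the plus strand, has the window chr2:18226013-18226262.
RAB18: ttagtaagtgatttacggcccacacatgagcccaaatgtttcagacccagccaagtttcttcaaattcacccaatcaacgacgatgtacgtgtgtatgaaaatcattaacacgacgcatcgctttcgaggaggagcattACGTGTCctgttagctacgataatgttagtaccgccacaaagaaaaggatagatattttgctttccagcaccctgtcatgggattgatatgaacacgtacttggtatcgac
LEA7: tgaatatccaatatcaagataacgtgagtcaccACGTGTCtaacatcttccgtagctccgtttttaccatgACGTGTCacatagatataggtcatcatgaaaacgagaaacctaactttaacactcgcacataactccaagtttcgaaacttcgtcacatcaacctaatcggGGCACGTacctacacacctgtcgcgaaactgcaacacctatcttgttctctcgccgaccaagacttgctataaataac
AT3G02480: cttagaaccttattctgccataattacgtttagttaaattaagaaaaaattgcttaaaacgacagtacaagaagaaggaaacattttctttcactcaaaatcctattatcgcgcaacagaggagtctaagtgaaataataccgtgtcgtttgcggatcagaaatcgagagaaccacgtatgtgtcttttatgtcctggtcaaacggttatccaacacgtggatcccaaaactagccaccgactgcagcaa
LEA4-5: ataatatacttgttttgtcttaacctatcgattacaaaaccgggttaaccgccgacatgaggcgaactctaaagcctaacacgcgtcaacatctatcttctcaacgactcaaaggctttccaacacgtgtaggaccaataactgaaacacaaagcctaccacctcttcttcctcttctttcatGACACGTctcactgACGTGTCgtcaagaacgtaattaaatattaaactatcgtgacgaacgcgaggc
AT2G44060: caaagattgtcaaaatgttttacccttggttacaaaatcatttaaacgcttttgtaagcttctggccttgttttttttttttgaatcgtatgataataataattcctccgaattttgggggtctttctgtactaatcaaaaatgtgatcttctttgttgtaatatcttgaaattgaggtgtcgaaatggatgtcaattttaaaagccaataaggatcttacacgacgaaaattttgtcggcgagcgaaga

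LEA7 held 3 matches, starting 217, 179 and 78 bases before the gene start, LEA4-5 held 2, at 67 and 53 bases, and RAB18 held 1, at 111 bases. AT3G02480 held none in the bases shown and 2 in the 50 bases that follow the gene start, and AT2G44060 held none in either stretch. Over the window of 250 bases before to 50 after the start, 13 of the 14 LEA genes that rose (92.9%) held ACGTGNC on either strand, against 18 of the 31 LEA genes tested (58.1%). The motif was in 18.7% of the windows of 1182 risen genes and in 9.29% of those of 1066 fallen genes, beside 12.1% of the windows of all 18499 tested genes that could be placed. The DRE core GCCGAC, bound by DREB factors, was in 5 of the 14 risen LEA windows (35.7%) and 7 of the 31 tested (22.6%), beside 4.15% of risen, 5.16% of fallen and 3.82% of all windows. The evening element AATATCT was in 3 of the 14 risen LEA windows (21.4%), and in 13.8% of risen, 13.4% of fallen and 11.8% of all windows. The E2F site TTTCCCGC was in 0.677% of risen, 0.469% of fallen and 0.865% of all windows, and the telo box AAACCCTAA was in 1.18%, 2.91% and 3.16%. A match describes letters in the window, not binding.

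Libraries held 17.4 to 22.4 M counts. Values below are counts per M counts (CPM) on TMM-scaled library sizes, and a gene was called where the Benjamini-Hochberg adjusted p of edgeR's quasi-likelihood test was under 0.05 over 18841 tested genes. The 8 libraries did not fall into 2 tight groups. The first principal component (41.9% of variance) set 4 h replicates 1 and 2, at 87.7 and 94.1, apart from the other 6, which lay at -8.54 or below, and the second (26.5%) set 4 h replicates 3 and 4, at -62.3 and -79.2, apart from the 2 h libraries, at 28.9 to 43.6. A score over 33 cell cycle markers (their mean log2 CPM with a prior count of 2) was 2.22, 1.88, -0.157 and -0.463 in 4 h replicates 1 to 4, against 0.371, -0.456, 0.517 and -0.535 in 2 h replicates 1 to 4. At 2 h, replicates 2 and 4 stood apart in pathogenesis-related transcripts, described with the defence genes. The biological coefficient of variation was 40.1% within the 4 h group and 23.3% within the 2 h group. Counts over lists below rest on all libraries unless a pair is said to be left out, and many of them differed without one of these pairs. Root markers were nearly absent: 5 of 8 were at 0 in all 8 libraries, and their sum reached at most 0.145 CPM. Light-harvesting and photosystem genes summed to 43980 to 104900 CPM, and of the markers of other cell types none of 14 vascular, 6 flower and 2 stomatal lineage genes passed (edgeR; 6, 0 and 1 at an unadjusted p under 0.05, and 3, 0 and 0 by DESeq2).

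The mutated genes were read in every library as a check of the labels. GRF8 was at 46.2, 49.8, 54.7 and 78.7 CPM at 4 h, against 90.3, 80.2, 85.1 and 84 CPM at 2 h in grf6 grf8. WT libraries held 67.97 to 129.5 CPM at 4 h and 101.8 to 141.3 CPM at 2 h, so that 4 h replicate 4 of the mutant lay above the lowest WT library of that time. GRF6 was at 44.8, 43.7, 44.5 and 63.9 CPM at 4 h, against 73.1, 65.7, 95.5 and 76.6 CPM at 2 h in grf6 grf8, beside 316.1 to 795.5 and 601.6 to 932.9 CPM in WT. GRF6 lay below every WT library of the same time in all mutant libraries, and transcripts of both genes remained detectable. In the mutant GRF8 was called lower at 4 h (-0.57 ± 0.181, adjusted p = 0.0446) and GRF6 was not (-0.66 ± 0.241, adjusted p = 0.0767), and the GRF8 call was lost in 7 of the 8 fits that left out 1 library. Of 11 tested 14-3-3 genes 2 fell, GRF8 and GRF3 (GRF3: -0.42, adjusted p = 0.0443), and none rose; none of the 11 was called without 4 h replicates 1 and 2, nor without 2 h replicates 2 and 4 (edgeR). GRF3 lost its call in all 8 such fits. The 2 fallen genes were 18.2% of the 11, beside 5.79% of all tested genes.

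Between 2 h and 4 h, 1195 genes rose (6.34% of those tested) and 1091 fell (5.79%), together 12.1%. The median log2 fold change was 1.17 among the risen genes and -0.76 among the fallen genes, beside 0.06 over all tested genes. Of the risen genes 703 changed by at least 2-fold and 278 by at least 4-fold, against 342 and 55 of the fallen genes. The 4 h and 2 h libraries did not overlap for 992 of the risen and 925 of the fallen genes; over all tested genes, 8.7% were higher and 7.92% lower at 4 h without overlap. No gene of the organelle genomes was called among 63 tested. Without 2 h replicates 2 and 4 the counts were 303 risen and 466 fallen, and without 4 h replicates 1 and 2 they were 1217 and 1311, of which 799 and 693 were also called with every library. The first of these fits called 1.56% of genes higher and 2.39% lower, and the second 6.34% and 6.83%. Leaving out a pair sets 4 libraries against 2, so that a lost call alone does not show that a change rested on the pair. Of 135 called genes followed, 81 were no longer called without the 2 h pair, and 36 of those 81 had a fold change at least as large as with every library; over the 81 the median was 94.9% of the log2 fold change with every library. Without the 4 h pair 46 were no longer called, 9 with a fold change at least as large and a median over the 46 of 73.9%.

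Of 31 LEA genes tested, 14 rose (45.2%, beside 6.34% of all tested genes) and none fell, with a median log2 fold change of 1.47 over the 31, beside 0.06 over all genes. AT3G17520, a LEA family member, had the highest fold change of the genes that reached a mean of 10 CPM without overlap. It was at 53.6, 25.2, 57.5 and 47.7 CPM in the 4 h libraries, against 0.444, 0.623, 1.52 and 1.17 CPM in the 2 h libraries. Every 4 h library lay more than 10 times above every 2 h library (log2 fold change 5.59 ± 0.448 SE, adjusted p = 5.64e-07). RAB18, a dehydrin of leaves and seeds, was at 637, 316, 662 and 799 CPM at 4 h, against 98.8, 83.5, 105 and 65.2 CPM at 2 h, and the groups did not overlap (2.77 ± 0.421, adjusted p = 0.000303). LEA7 was at 460, 361, 527 and 427 CPM at 4 h, against 63.3, 62.2, 69.4 and 67.5 CPM at 2 h. Its 2 h libraries lay within a few CPM of each other and all below the 4 h libraries (2.76 ± 0.345, adjusted p = 5.38e-05). AT3G02480 was at 317, 277, 544 and 335 CPM at 4 h, against 12.7, 25.7, 14.9 and 17.1 CPM at 2 h (4.39 ± 0.525, adjusted p = 4.5e-05). Replicate 3 was the highest of the 4 h libraries, and no 2 h library came near them. LEA4-5 was at 311, 169, 336 and 367 CPM at 4 h, against 68.8, 52.1, 55.3 and 41.4 CPM at 2 h (2.44 ± 0.382, adjusted p = 0.000398). Replicate 2 was the lowest of the 4 h libraries for RAB18, LEA7, AT3G02480 and LEA4-5 and for AT3G17520, yet above all 2 h libraries.

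The risen LEA genes spanned a wide range of levels. LEA18, AT3G53040 and AT3G15670 also stood among the 12 highest such fold changes, with log2 fold changes of 3.54, 4.41 and 3.56. AT2G42560, annotated as a LEA domain protein but not counted in the list because its symbol did not match, was at 90.1, 77.1, 143 and 93.2 CPM at 4 h, against 2.94, 8.76, 4.56 and 17 CPM at 2 h (3.60 ± 0.7, adjusted p = 0.00323). ECP63, AT5G44310, XERO1, AT2G18340 and EM1, mostly known from seeds, stayed below 6 CPM in every library and had log2 fold changes of 2.72 to 3.53. AT2G44060 moved least of the 14: it was at 234, 255, 246 and 223 CPM at 4 h, against 192, 218, 158 and 195 CPM at 2 h (0.33 ± 0.107, adjusted p = 0.0477). The LEA genes with the highest levels of all did not pass. COR47, an acidic dehydrin, had a mean of 9622 ± 3984 CPM at 4 h and 7638 ± 795.9 CPM at 2 h (SD, n = 4 libraries each; adjusted p = 0.554 in edgeR), and ERD10 stood at 4686 ± 1123 and 4699 ± 354.8 CPM (adjusted p = 0.995). Per length, in the authors' FPKM, COR47 was at 7636 at 4 h and 6097 at 2 h, beside 685 and 99.3 for RAB18 and 816 and 37.8 for AT3G02480. The count of risen LEA genes was 11 of 31 (35.5%, beside 6.34% of all genes in that fit) without 4 h replicates 1 and 2 and 10 of 33 (30.3%, beside 1.56%) without 2 h replicates 2 and 4. When 1 library was left out in turn, the call was lost (number of the 8 fits and highest adjusted p in edgeR) for EM1 (8 fits, 0.13), AT2G18340 (7 fits, 0.0962), AT2G44060 (7 fits, 0.232) and AT5G44310 (3 fits, 0.0627).

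**Figure D1:**
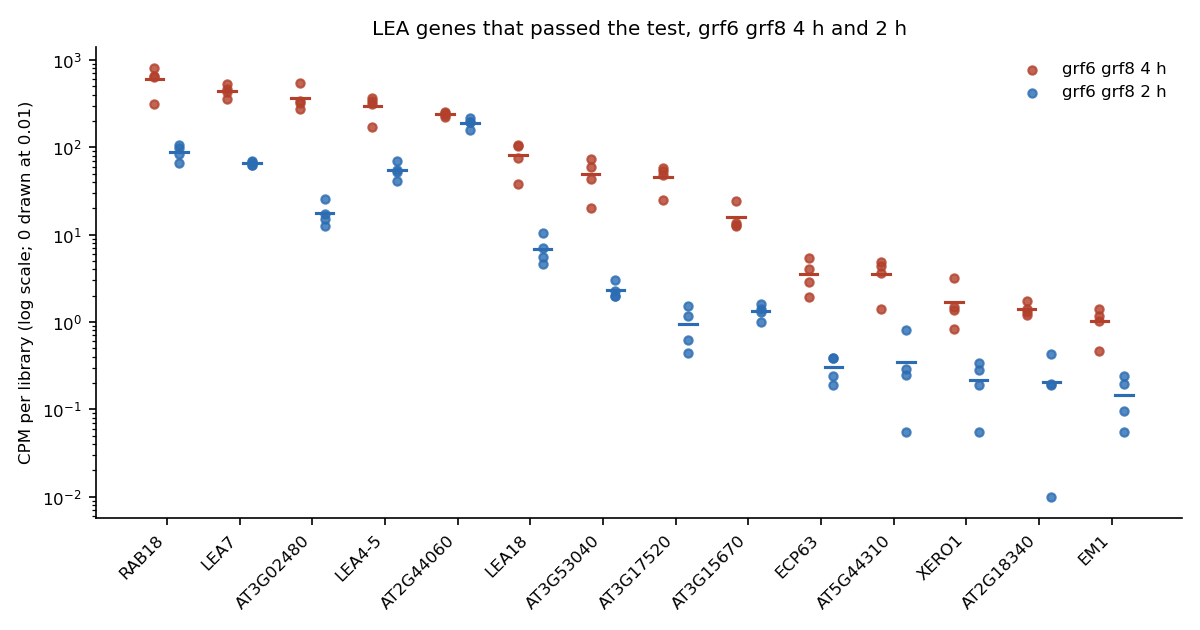
CPM on a log axis in each of 4 libraries at 4 h (red, left) and 2 h (blue, right) of grf6 grf8 for the 14 LEA genes that rose; horizontal lines are means, and a count of 0 is drawn at 0.01 CPM. The 4 h libraries lie above the 2 h libraries for every gene shown, by far less for AT2G44060 than for AT3G17520.

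Among 18 dehydration markers outside the LEA list, 5 rose (27.8%, beside 6.34% of all genes) and none fell (median log2 fold change 0.24). Without 4 h replicates 1 and 2, 6 rose, and without 2 h replicates 2 and 4, 3 rose (16.7%, beside 1.56%). LTP4, a lipid transfer protein, was at 116, 86.7, 146 and 96.9 CPM at 4 h, against 3.88, 5.84, 7.22 and 15.9 CPM at 2 h, with no overlap (3.76 ± 0.446, adjusted p = 4.12e-05). LTP3, of the same family, was at 390, 226, 403 and 426 CPM at 4 h, against 50.4, 59.4, 51.5 and 78.2 CPM at 2 h (2.59 ± 0.495, adjusted p = 0.00213). LTI65, also called RD29B and an ABA-responsive marker, was at 612, 194, 540 and 786 CPM at 4 h, against 74.8, 101, 169 and 85.8 CPM at 2 h (2.31 ± 0.531, adjusted p = 0.00761). All 4 h libraries of LTP3 and LTI65 lay above the 2 h libraries, replicate 2 again the lowest. TSPO, a membrane protein induced by ABA, had a log2 fold change of 2.30, and MAPKKK18, a kinase induced by ABA, one of 1.21 (adjusted p = 0.0357). LTP3 and LTP4 are close relatives, and reads shared between such copies could be split by the counting. The call was lost on leaving out 1 library for MAPKKK18 (6 fits, 0.125). Markers that did not pass included LTI78 (RD29A), at 3560 ± 423.9 CPM at 4 h and 4288 ± 675.4 CPM at 2 h, and RD20, at 5093 ± 1008 CPM and 2999 ± 330.3 CPM (SD, n = 4 each; adjusted p = 0.537 and 0.0771 in edgeR).

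Of 31 genes of ABA synthesis, perception and breakdown and of the PP2C phosphatases, 2 rose and 2 fell when no covariate was fitted. The share called there, 12.9%, was near the 12.1% of all tested genes. This did not hold after adjusting for the score over cell cycle markers. In that adjusted fit 12 of the 31 rose (38.7%, beside 16.6% of all genes) and 2 fell (6.45%, beside 15.5%). The 12 included 7 of 8 PP2C genes and 3 of 7 synthesis genes. With every library and no covariate, none of 7 ABA synthesis genes passed (edgeR, 1 at an unadjusted p under 0.05, and none by DESeq2). Fold changes were above 0 for 6 of the 7 (median log2 fold change 0.384). The whole list, including members too low to test, summed to 1664 to 2131 CPM at 4 h and 1280 to 1590 CPM at 2 h. The 1 below 0 was NCED3, the rate-limiting dioxygenase in drying leaves. Its mean was 266.7 ± 69.71 CPM at 4 h and 320.7 ± 61.2 CPM at 2 h (SD, n = 4 each). Of 8 receptor genes 1 fell, RCAR3 (PYL8), at 61.3, 73.3, 92.5 and 112 CPM at 4 h, against 141, 126, 154 and 121 CPM at 2 h (-0.68 ± 0.207, adjusted p = 0.0366). The libraries did not overlap, with 4 h replicate 4 nearest to the 2 h values. Of 8 clade A PP2C genes, the negative regulators, 2 rose. AHG1, known mainly from seeds, was at 3.29, 1.69, 3.57 and 1.6 CPM at 4 h, against 0.111, 0.144, 0.0475 and 0.146 CPM at 2 h (4.42 ± 0.507, adjusted p = 0.000103). It was the lowest of the 8 tested PP2C genes in level, yet every 4 h library was more than 10 times above the 2 h libraries. ABI2 was at 316, 221, 331 and 398 CPM at 4 h, against 192, 220, 201 and 197 CPM at 2 h, where 4 h replicate 2 all but met the highest 2 h library (0.65 ± 0.184, adjusted p = 0.026). Of 8 genes for ABA breakdown, conjugation and transport 1 fell, UGT71B6, an ABA glucosyltransferase (log2 fold change -0.73, adjusted p = 0.0379). Without 2 h replicates 2 and 4, 1 of 9 PP2C genes rose and no receptor or breakdown gene was called, with log2 fold changes of 0.66 for ABI2, -0.82 for RCAR3 and -0.53 for UGT71B6. Without 4 h replicates 1 and 2, 1 synthesis gene and 1 receptor gene were called higher, and no breakdown gene was called; the receptor gene RCAR3 was no longer called (-0.42, adjusted p = 0.236). Leaving out 1 library lost the call of RCAR3 (6 fits, 0.0948), ABI2 (5 fits, 0.108) and UGT71B6 (5 fits, 0.119).

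Of 10 SnRK2 kinase genes 3 rose (30.0%, beside 6.34% of all genes) and none fell. OST1 (SnRK2.6), the kinase that closes stomata in response to ABA, was at 25.5, 16.6, 22.1 and 20.6 CPM at 4 h, against 9.43, 9.72, 10.1 and 9.36 CPM at 2 h (1.13 ± 0.162, adjusted p = 0.000166). The 2 h libraries were almost level, and all 4 h libraries stood above them. SNRK2.7 and SNRK2.10 had log2 fold changes of 1.97 and 0.56, while SNRK2.2 and SNRK2.3, the other strongly ABA-activated kinases, did not pass, at -0.19 and -0.22. Without 2 h replicates 2 and 4 only OST1 of the 10 was called, while SNRK2.7 and SNRK2.10 had log2 fold changes of 1.90 and 0.51, close to those with every library (adjusted p = 0.0634 and 0.183). Of 5 tested ABF and ABI factors, ABI5 rose and ABF1 fell. ABI5, a bZIP factor of seeds and drying tissue, was at 42.2, 53.8, 22.7 and 17.4 CPM at 4 h, against 9.49, 5.94, 11 and 5.8 CPM at 2 h (2.08 ± 0.398, adjusted p = 0.00219). It was higher in 4 h replicates 1 and 2 than in replicates 3 and 4, and its log2 fold change was 1.298 without the first pair (adjusted p = 0.0448) and 1.68 without 2 h replicates 2 and 4 (adjusted p = 0.0569). ABF1 was at 41.4, 38, 30.6 and 31.9 CPM at 4 h, against 60.9, 55.5, 60 and 55.7 CPM at 2 h (-0.71 ± 0.111, adjusted p = 0.000387). ABF2, ABF3 and ABF4 did not pass, with log2 fold changes of 0.51, 0.25 and 0.02. The call lost on leaving out 1 library was that of SNRK2.10 (4 fits, 0.0956).

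Of 21 drought transcription factor genes 4 rose (19.0%, beside 6.34% of all genes) and none fell. MYB102, which responds to drying and wounding, was at 9.45, 18, 27.8 and 12.7 CPM at 4 h, against 5.05, 6.75, 5.27 and 5.75 CPM at 2 h (1.57 ± 0.366, adjusted p = 0.00836). RD26, an ABA-induced NAC factor, was at 729.5, 609, 1288 and 1249 CPM at 4 h, against 433.9, 641.2, 435.3 and 517.3 CPM at 2 h (0.93 ± 0.295, adjusted p = 0.0423). MYB102 did not overlap between times, whereas for RD26 4 h replicate 2 lay below the highest 2 h library. NAC3 (NAC055) and ZF2 (AZF2, a zinc finger repressor) had log2 fold changes of 0.96 and 1.15, with 4 h replicates 3 and 4 more than 1.5 times above replicates 1 and 2. Of 8 CBF and DREB2 genes, DREB2A, an activator in drought and heat, and DREB2C rose, and CBF2, a cold factor, fell by 1.15 on the log2 scale. Of this list 25.0% rose and 12.5% fell, beside 6.34% and 5.79% of all genes. DREB2A was at 94.1, 144, 190 and 232 CPM at 4 h, against 56.3, 74.6, 58.8 and 57.4 CPM at 2 h (1.42 ± 0.339, adjusted p = 0.00989). HSFA6B, a heat shock factor known to respond to ABA, was at 36.9, 27.2, 56.1 and 72.1 CPM at 4 h, against 5.49, 10.2, 11.2 and 9.65 CPM at 2 h (2.39 ± 0.449, adjusted p = 0.00192), with no overlap. HSP18.2, a small heat shock protein gene, also rose. Of the 18 genes in that list 2 rose (11.1%, beside 6.34% of all genes) and 1, BIP3, fell (5.56%, beside 5.79%). HB21, the only call of 10 HD-Zip I genes, was at 5.96, 9.49, 1.82 and 1.22 CPM at 4 h, against 0.285 to 0.999 CPM at 2 h. Without 4 h replicates 1 and 2, 8 of the 21 drought factors (38.1%, beside 6.34% of all genes in that fit) passed upward. No HD-Zip I gene was called in that fit (HB21 1.16, adjusted p = 0.363). Adjusting for the score over cell cycle markers instead gave 12 of the 21 drought factors risen (57.1%, beside 16.6% of all genes) and 1 fallen. No drought factor, CBF, DREB2 or HD-Zip I gene was called without 2 h replicates 2 and 4, but the log2 fold changes were as large or larger: 1.503 for DREB2A, 1.69 for MYB102, 1.14 for RD26, 1.19 for NAC3, 1.26 for ZF2, 1.34 for DREB2C, -1.42 for CBF2 and 2.79 for HB21. Leaving out 1 library ended the calls of RD26 (5 fits, 0.125), NAC3 (6 fits, 0.147), ZF2 (5 fits, 0.105), DREB2C (7 fits, 0.108), CBF2 (6 fits, 0.13) and HB21 (4 fits, 0.0848).

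**Figure D2:**
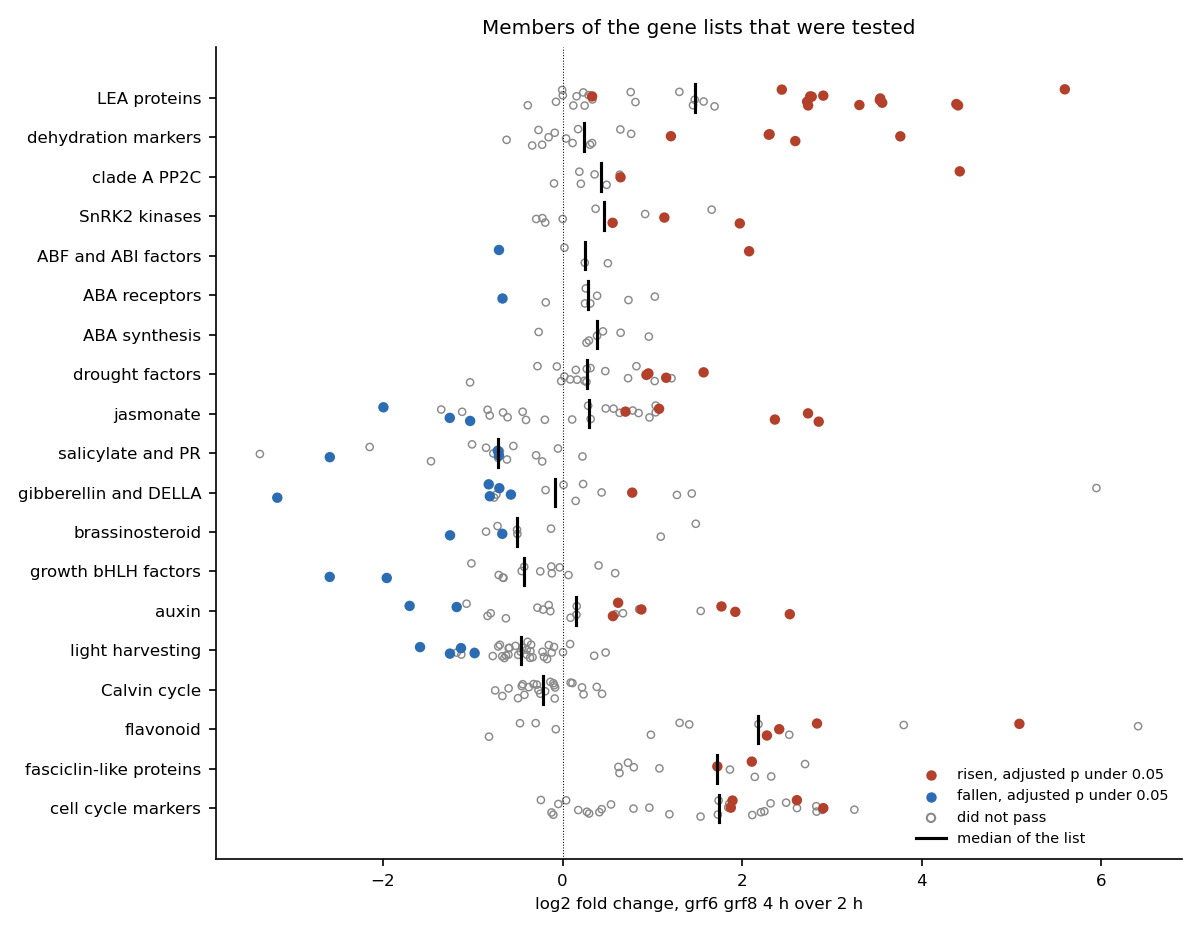
Log2 fold change of grf6 grf8 4 h over 2 h (x axis) for each tested member of 19 gene lists (rows); filled points passed the test (red risen, blue fallen), open points did not, and black bars are list medians. LEA genes hold the most filled points, 14 of 31, and the salicylate, light-harvesting and growth bHLH lists hold filled points only on the side of lower levels at 4 h.

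Among other genes of stress metabolism, MIPS2, an inositol phosphate synthase, rose (58, 46.8, 32.3 and 20.9 CPM at 4 h, against 12.5, 10.2, 14.4 and 6.82 CPM at 2 h; 1.85 ± 0.292, adjusted p = 0.000451) and GolS3, a galactinol synthase known from cold, fell (-1.70, adjusted p = 0.0237), the only called members of 7. Of 7 proline genes the transporter gene PROT1 passed (0.66, adjusted p = 0.0446), while P5CS1, the main synthesis gene, had a mean of 4029 ± 1173 CPM at 4 h and 1987 ± 444.2 CPM at 2 h without passing (SD, n = 4 each; adjusted p = 0.101 in edgeR). ATG8H, an autophagy gene, was at 159, 163, 311 and 304 CPM at 4 h, against 98.2, 90.8, 70.2 and 105 CPM at 2 h (1.36 ± 0.317, adjusted p = 0.00819), the only call among 13 autophagy genes, of which 12 had a fold change above 0. The autophagy count changed with the libraries fitted: 6 of 13 rose without 4 h replicates 1 and 2 (46.2%, beside 6.34% of all genes), 10 when that score over cell cycle markers was a covariate (in that fit 16.6% of all genes rose and 15.5% fell), and none without 2 h replicates 2 and 4, where ATG8H had a log2 fold change of 1.46 (adjusted p = 0.0669). SAG29, a sugar transporter of senescing leaves, was at 13.7, 5.68, 14.9 and 5.39 CPM at 4 h, against 0.0555, 0.575, 0.19 and 0.828 CPM at 2 h (4.55 ± 0.882, adjusted p = 0.00238), the only call of 15 chlorophyll breakdown and senescence genes. Fold changes of that list were mixed, 8 above 0 and 7 below (median log2 fold change 0.165). The lowest were -2.728 (AT5G45890), -1.338 (AT1G19670) and -1.076 (AT4G35770), none of them called. Fitting the score over cell cycle markers gave 6 of the 15 risen (40.0%, beside 16.6% of all genes) and 1 fallen. In starch breakdown, CT-BMY (the beta-amylase BAM3) fell (-1.15, adjusted p = 0.0114) and RCP1 (MEX1), the maltose exporter of chloroplasts, rose (0.75), of 17. In nitrogen metabolism, NRT1.8, a nitrate transporter, rose by 4.15, NRT1.5 by 1.73 and GLN1.3 by 1.08 on the log2 scale, and GDH1 and NRT1.7 fell by 0.82 and 0.75, of 15. APL4, annotated as a glucose-1-phosphate adenylyltransferase, was at 42.5, 16.9, 7.5 and 3.4 CPM at 4 h, against 2.77, 0.67, 1.42 and 0.536 CPM at 2 h; its 4 h libraries spread more than 10-fold, and without 4 h replicates 1 and 2 it no longer passed (adjusted p = 0.158, against 0.0125 with every library). The other genes among the 12 highest fold changes were AT2G37870, a lipid transfer family member (3.39), AT2G02700, a C1 domain protein (4.22), and the uncharacterized AT1G07985 (4.07) and AT3G27025 (3.78). None of 9 branched-chain amino acid breakdown genes, 11 antioxidant enzyme genes, 9 plasma membrane proton pump genes or 16 ribosome and nucleolus genes passed (edgeR, with 0, 2, 0 and 0 at an unadjusted p under 0.05, and 0, 1, 0 and 0 by DESeq2). After adjusting for the score over cell cycle markers, 6 of the 16 ribosome and nucleolus genes fell (37.5%, beside 15.5% of all genes). None of them rose. In the same fit 1 branched-chain gene rose, 2 antioxidant genes rose and 1 fell, and 1 proton pump gene fell. The ribosome and nucleolus list summed to 2344, 2891, 1487 and 1156 CPM in 4 h replicates 1 to 4. Its 2 h libraries summed to 1595 to 2087 CPM. No proline or starch gene was called without 2 h replicates 2 and 4 (PROT1 0.55, CT-BMY -1.12 and RCP1 0.79), and 2 nitrogen genes rose and 1 fell. Without 4 h replicates 1 and 2 the last count was the same, 2 inositol and galactinol genes rose and none fell, 2 senescence genes rose and 1 fell, and 1 proton pump gene rose. Calls lost on leaving out 1 library were those of GolS3 (3 fits, 0.0669), PROT1 (5 fits, 0.2), RCP1 (3 fits, 0.081), NRT1.5 (2 fits, 0.0606), NRT1.7 (4 fits, 0.0794), GLN1.3 (6 fits, 0.114) and APL4 (without 4 h replicate 1, 0.0518).

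Jasmonate genes moved in both directions, 5 up and 3 down of 28 (17.9% and 10.7%, beside 6.34% and 5.79% of all genes), against 6 up and 3 down without 4 h replicates 1 and 2 and 3 up and 1 down without 2 h replicates 2 and 4. In the last fit the log2 fold change was -0.94 for OPR3, smaller than with every library, about the same for JAR1 (-1.02) and larger for JAZ6 (0.95), with adjusted p-values of 0.218, 0.0812 and 0.0755. The fallen genes encode synthesis and conjugation steps. AOS, the allene oxide synthase that commits to jasmonate, was at 141.8, 254.1, 287.5 and 210.8 CPM at 4 h, against 950.1, 840.5, 742.9 and 1031 CPM at 2 h, with no overlap (-1.995 ± 0.327, adjusted p = 0.00062 in edgeR). OPR3 and JAR1, a later step and the enzyme that forms jasmonoyl-isoleucine, fell by 1.26 and 1.03 on the log2 scale. The risen genes were the repressors JAZ7, JAZ3 and JAZ6 and the storage proteins VSP2 and VSP1. JAZ7 was at 22.6, 16.4, 41 and 24.8 CPM at 4 h, against 2.22, 4.65, 1.9 and 5.7 CPM at 2 h (2.85 ± 0.508, adjusted p = 0.00127). VSP2 was at 792, 750, 319 and 212 CPM at 4 h, against 61.4, 74.9, 86.8 and 88.5 CPM at 2 h (2.73 ± 0.533, adjusted p = 0.00248). Both were free of overlap, but VSP2 and VSP1 were highest in 4 h replicates 1 and 2, and VSP1 no longer passed without them (0.71, adjusted p = 0.505, against 2.37 and 0.0252 with every library). VSP1 and VSP2 are close copies, so reads may be split between them. With 1 library left out the calls lost were OPR3 (4 fits, 0.0611), JAZ6 (5 fits, 0.138) and VSP1 (5 fits, 0.0835).

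The salicylate and PR genes that passed were lower at 4 h, and the PR genes were highest in 2 h replicates 2 and 4. Of 17 salicylate and PR genes 3 fell (17.6%, beside 5.79% of all genes) and none rose, and 16 of 17 fold changes were below 0 (median -0.72). BGL2 (PR2, a glucanase) was at 310.2, 171.9, 277.7 and 113.7 CPM at 4 h, against 579.1, 2687, 168.3 and 1832 CPM at 2 h (-2.59 ± 0.793, adjusted p = 0.0368). Replicates 2 and 4 of the 2 h group were more than 3 times above the other 2 h libraries, and replicate 3 lay within the 4 h range. PR5 had the same shape at 84.5, 79.8, 85.3 and 36.9 CPM at 4 h, against 133, 554, 57.9 and 526 CPM at 2 h, and did not pass (adjusted p = 0.0588). NPR1, the salicylate coreceptor, was at 45, 43.5, 47.6 and 42 CPM at 4 h, against 78.5, 74.5, 59.3 and 78.6 CPM at 2 h (-0.71 ± 0.142, adjusted p = 0.00303), without overlap. SAG101, a partner of EDS1, had a log2 fold change of -0.72 (adjusted p = 0.0367). The whole list summed to 598.6 to 974.4 CPM over the 4 h libraries, against 1420, 4216, 522.8 and 3135 CPM in 2 h replicates 1 to 4. Of the 17, 1 passed without 2 h replicates 2 and 4 and 1 without 4 h replicates 1 and 2, and without the 2 h pair BGL2 had a log2 fold change of -0.82 (adjusted p = 0.622). The 2 h pair was picked after the data were seen, as the libraries rich in PR transcripts. The smaller change of PR genes without that pair was therefore built into the choice. Leaving out 1 library at a time lost BGL2 (6 fits, 0.129) and SAG101 (5 fits, 0.112). What part the state of those 2 libraries had in other results was not tested.

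Genes among the 12 lowest fold changes, which form no list, are described singly. CRK6, a cysteine-rich receptor kinase, was at 14.4, 5.73, 8.9 and 5.2 CPM at 4 h, against 44.2, 136, 18.6 and 88 CPM at 2 h (-3.06 ± 0.664, adjusted p = 0.00509). RLP23, the receptor of the nlp20 peptide pattern, was at 33, 14.4, 27.6 and 15.1 CPM at 4 h, against 79.4, 278, 34.6 and 221 CPM at 2 h (-2.76 ± 0.66, adjusted p = 0.00985). In both, 2 h replicates 2 and 4 were highest and replicate 3 came close to the 4 h libraries without reaching them. Without replicates 2 and 4, RLP23 no longer passed (-1.38, adjusted p = 0.268), nor did CRK6 (adjusted p = 0.12) or MSRB9, a methionine sulfoxide reductase (adjusted p = 0.198, against 0.014 with every library). CRK4 was at 33.9, 22.8, 52.2 and 32.6 CPM at 4 h, against 190, 239, 110 and 187 CPM at 2 h (-2.36 ± 0.354, adjusted p = 0.000275), and it passed without them too (adjusted p = 0.00721), as did the kinase AT1G66920 (-2.27; adjusted p = 0.00115 without them). CRK40, AT3G28540, an ATPase family member, and AT3G60540, a Sec61 beta subunit, were also highest in 2 h replicates 2 and 4, with log2 fold changes of -2.32, -2.47 and -2.35. Without those libraries these were -1.48, -1.77 and -1.71, and none passed (adjusted p = 0.0668, 0.0766 and 0.105). WRKY70 and WRKY53, regulators of defence and senescence, fell by 1.54 and 1.80 on the log2 scale and WRKY57 rose by 0.89, of 20 WRKY genes, none of which was called without 2 h replicates 2 and 4 (-1.34, -1.04 and 0.94) and of which 1 rose and 1 fell without 4 h replicates 1 and 2. MYB51, a regulator of indole glucosinolates, fell (-1.79, adjusted p = 0.0033), the only call of 18 glucosinolate genes (5.56%, beside 5.79% of all genes). BIP3, an endoplasmic reticulum chaperone, had a log2 fold change of -2.68 with 33.7 and 37.4 CPM in 2 h replicates 2 and 4, and 12.9 and 4.37 CPM in replicates 1 and 3. Calls that single libraries ended were WRKY70 (7 fits, 0.138), WRKY53 (5 fits, 0.0886), WRKY57 (2 fits, 0.0572) and BIP3 (3 fits, 0.0676).

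**Figure D3:**
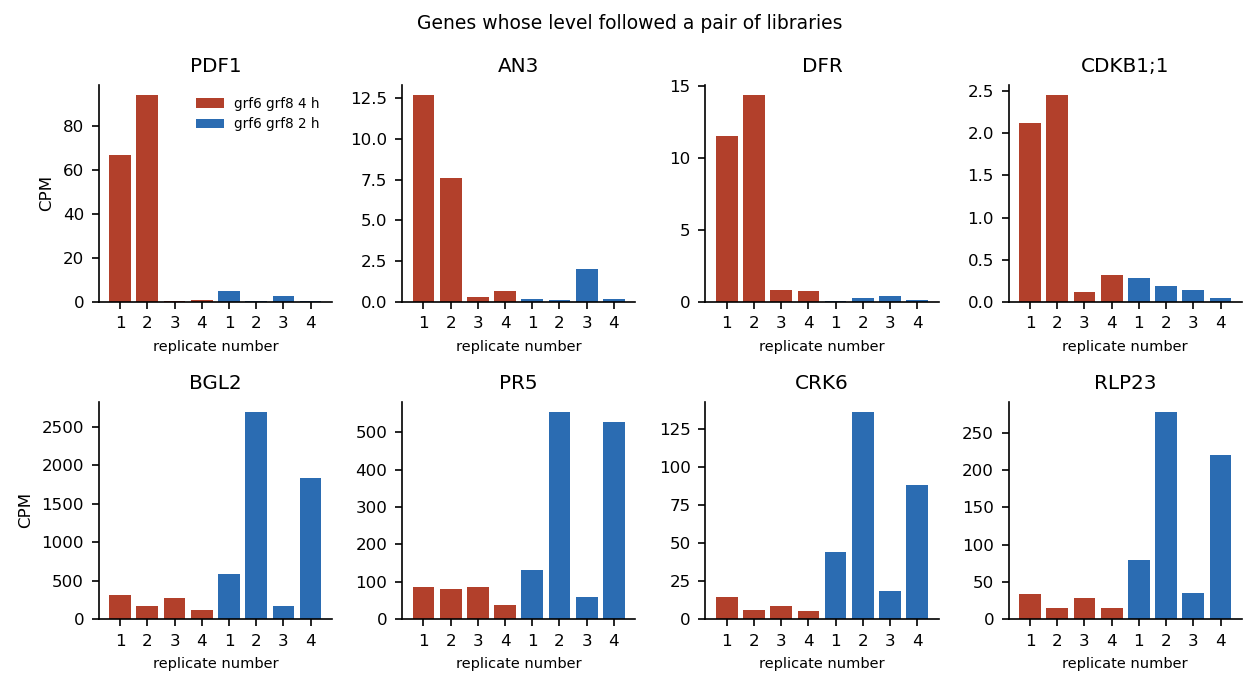
CPM by library (bars, replicate number below) at 4 h (red) and 2 h (blue) of grf6 grf8 for 8 genes. In the top row 4 h replicates 1 and 2 are high, with DFR at 11.5 and 14.4 CPM against 0.82 and 0.77 CPM in 4 h replicates 3 and 4, and in the bottom row 2 h replicates 2 and 4 are high.

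The gibberellin and brassinosteroid genes that passed were mostly lower at 4 h. Of 16 gibberellin genes 5 fell (31.2%, beside 5.79% of all genes) and 1 rose. Over the whole list 8 fold changes were above 0 and 8 below (median -0.089), the highest 5.95 (AT1G78440, not called). All 3 gibberellin receptor genes fell: GID1A was at 18.6, 22, 12.8 and 16.1 CPM at 4 h, against 29.5, 27.7, 34.9 and 30.8 CPM at 2 h (-0.82 ± 0.159, adjusted p = 0.00231). GID1C was at 16, 16.2, 16.2 and 16.4 CPM at 4 h, against 25.6, 24.5, 29 and 26.6 CPM at 2 h (-0.70 ± 0.117, adjusted p = 0.00072), and GID1B had a log2 fold change of -0.81. The GID1A and GID1C libraries did not overlap between times. The DELLA repressor gene RGA1 (RGA) fell by 0.57 on the log2 scale, GA20OX2, a synthesis gene below 4 CPM, by 3.18, while the DELLA gene RGL3 rose by 0.78 (adjusted p = 0.0358). Of 15 growth bHLH genes, BEE1 and BEE3, induced by brassinosteroid, fell: BEE1 was at 2.38, 3.08, 2.17 and 3.14 CPM at 4 h, against 14.1, 11.1, 10.4 and 6.33 CPM at 2 h (-1.96 ± 0.421, adjusted p = 0.00478). Of 9 brassinosteroid genes the receptor gene BRI1 fell by 0.67 and BAS1, an inactivating enzyme, by 1.25 on the log2 scale. The fallen genes were 22.2% of the brassinosteroid list and 13.3% of the bHLH list, beside 5.79% of all genes. Without 2 h replicates 2 and 4, 3 of 17 gibberellin genes and 2 of 15 bHLH genes were called lower, and 1 of 9 brassinosteroid genes. Leave-one-out fits lost the calls of GID1B (5 fits, 0.105), GA20OX2 (5 fits, 0.0735), RGL3 (6 fits, 0.12), BRI1 (without 4 h replicate 3, 0.0584) and BAS1 (3 fits, 0.0845).

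Auxin genes were mixed, 6 up and 2 down of 23 (26.1% and 8.7%, beside 6.34% and 5.79% of all genes). IAA29 and SHY2 (IAA3), both Aux/IAA repressor genes, fell. IAA29 was at 20.9, 14.6, 13.4 and 27 CPM at 4 h, against 57.7, 54.5, 82 and 52.8 CPM at 2 h (-1.70 ± 0.356, adjusted p = 0.00397), without overlap. BRU6 (GH3.2), an enzyme that conjugates auxin, was at 174, 198, 266 and 454 CPM at 4 h, against 67.7, 114, 62.7 and 75.8 CPM at 2 h (1.77 ± 0.464, adjusted p = 0.0169). The other risen auxin genes were IAA1, IAA5, IAA8, IAA14 and AXR3 (IAA17), at 0.56 to 2.53, and none of the 6 passed without 2 h replicates 2 and 4. In that fit the log2 fold change was larger for BRU6 (2.05) and IAA5 (1.97) and smaller for IAA1 (0.70), IAA8 (0.40), IAA14 (2.10) and AXR3 (0.51). IAA14 and IAA8 were not called without 4 h replicates 1 and 2 (1.015 and 0.345, adjusted p = 0.454 and 0.25). PKS4, a phytochrome kinase substrate, and the DUF1442 gene AT5G62280 were among the lowest fold changes, at -2.27 and -2.50, as was the uncharacterized AT5G08760 at -2.51. EFE (ACO4), an ethylene-forming oxidase, fell (-1.14, adjusted p = 0.00328), the only call of 9 ethylene synthesis genes (11.1%, beside 5.79% of all genes). In the cell wall lists EXPA1, an expansin, and TCH4 (XTH22) rose by 1.44 and 1.31 on the log2 scale. They were 2 of 25 (8.0%, beside 6.34% of all genes). Neither the cell wall lists nor the ethylene list held a call without 2 h replicates 2 and 4 (EXPA1 1.22, TCH4 1.503 and EFE -0.74). Lost on leaving out 1 library were IAA1 (7 fits, 0.14), IAA5 (5 fits, 0.126), IAA8 (6 fits, 0.103), IAA14 (5 fits, 0.197), AXR3 (6 fits, 0.16), BRU6 (3 fits, 0.0642) and TCH4 (without 2 h replicate 3, 0.0521).

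CIB1, a cryptochrome-interacting bHLH factor, was listed at 0 counts in all 4 libraries at 4 h, against 275, 88, 397 and 181 counts at 2 h. It was also listed at 0 in 1 mutant library at 0 h and in 3 WT libraries, while another WT library held 1486 counts, so an exact 0 may be a failed estimate. It was called lower (adjusted p = 0.0191), no fold is given, and the call was lost without 4 h replicates 1 and 2 (adjusted p = 0.076).

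Of 37 light-harvesting and photosystem genes tested, 33 had a fold change below 0 (median -0.47), and 4 passed, all lower (10.8%, beside 5.79% of all genes). CAB1 (LHCB1.3), an antenna protein of photosystem II, was at 7817, 6700, 6990 and 10670 CPM at 4 h, against 15960, 21400, 23400 and 16000 CPM at 2 h (-1.25 ± 0.34, adjusted p = 0.0205). LHB1B1 was at 529.2, 688.3, 1192 and 2127 CPM at 4 h, against 2883, 3897, 4142 and 2709 CPM at 2 h (-1.59 ± 0.489, adjusted p = 0.0379). Neither overlapped between times, and 4 h replicate 4 was the highest of its group for both. LHCB4.2 and PSBQ-2, an antenna protein and an oxygen-evolving subunit, fell by 1.13 and 0.98 on the log2 scale. The whole list summed to 43980 to 79100 CPM at 4 h and 77220 to 104900 CPM at 2 h, so that 4 h replicate 4 reached above the lowest 2 h library. None of 24 Calvin cycle genes passed (edgeR, 1 at an unadjusted p under 0.05, none by DESeq2; median -0.22). No light-harvesting gene passed without 4 h replicates 1 and 2 or without 2 h replicates 2 and 4, where the medians were -0.29 and -0.48; in the second fit the 4 log2 fold changes were as large as with every library or larger, at -1.06 to -1.64. Fewer cells of a type and less RNA per cell cannot be told apart in whole leaves. Omitting 1 library ended the calls of CAB1 (3 fits, 0.0542), LHB1B1 (7 fits, 0.0937), LHCB4.2 (4 fits, 0.084) and PSBQ-2 (7 fits, 0.108). LHCB1 genes are near-identical copies whose reads the counting may have split.

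Of 25 wax and cutin genes CER10 and CER2, both needed to elongate wax precursors, fell: CER2 was at 72.2, 70.6, 64.7 and 78.5 CPM at 4 h, against 158, 94.5, 212 and 141 CPM at 2 h (-1.08 ± 0.296, adjusted p = 0.0212). Of 17 aquaporin genes TIP2;3, a tonoplast channel, rose by 3.15 and PIP2;8 by 3.09 on the log2 scale, both below 13 CPM (PIP2;8 mainly in 4 h replicates 1 and 2), while PIP2E, a plasma membrane channel at 461.3 to 806.5 CPM at 4 h and 840.5 to 1038 CPM at 2 h, fell by 0.63. KAT2, a guard cell potassium channel, rose by 1.84 (adjusted p = 0.00704), the only call among 7 guard cell markers. Of 12 morning clock genes RVE2 rose (10, 20.7, 16.2 and 15.1 CPM at 4 h, against 4.66, 5.46, 4.79 and 4.82 CPM at 2 h; 1.65 ± 0.29, adjusted p = 0.00111) and EPR1 (RVE7) fell by 1.02 on the log2 scale. Of 11 evening clock genes ELF4 and PRR5 rose, by 1.27 and 0.79. Adjusting for the score over cell cycle markers gave 7 of the 11 risen (63.6%, beside 16.6% of all genes) and none fallen. With every library and no covariate, 8.0% of wax, 5.88% of aquaporin and 8.33% of morning clock genes fell, beside 5.79% of all genes. Risen were 11.8% of aquaporin, 8.33% of morning clock, 18.2% of evening clock and 14.3% of guard cell genes, beside 6.34% of all genes. Without 2 h replicates 2 and 4 no aquaporin, evening clock or guard cell gene was called, although the log2 fold changes of TIP2;3 (3.70), KAT2 (2.0), ELF4 (1.53), PRR5 (0.87) and PIP2E (-0.79) were larger than with every library and only that of PIP2;8 (2.76) was smaller. Without 4 h replicates 1 and 2 the counts were 1 aquaporin and 3 evening clock genes risen, 1 wax gene fallen, 1 morning clock gene risen and none fallen, and 1 guard cell gene risen and 1 fallen. The clock time of harvest is not given in the sources used here, and time of day and dehydration time cannot be told apart. The calls of CER2 (without 2 h replicate 3, 0.0622), PIP2;8 (6 fits, 0.106), PIP2E (7 fits, 0.107), EPR1 (3 fits, 0.056) and ELF4 (3 fits, 0.0753) were lost on leaving out 1 library.

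Genes of dividing and young tissue were high in 4 h replicates 1 and 2. Of 33 cell cycle markers 4 rose (12.1%, beside 6.34% of all genes) and none fell (median 1.74): the mitotic kinase genes CDKB1;1, CDKB2;2 and AUR2 and the cytokinesis syntaxin gene SYP111 (KNOLLE). CDKB1;1 was at 2.12, 2.46, 0.117 and 0.321 CPM at 4 h, against 0.278, 0.192, 0.142 and 0.0487 CPM at 2 h. The first pair of 4 h libraries was far above the rest, and the second pair lay in or just above the 2 h range. AUR2 was higher in all 4 libraries at 4 h, at 2.12 to 3.54 CPM, against 0 to 0.855 CPM at 2 h. The list summed to 211.1, 183.6, 75.5 and 82.63 CPM in 4 h replicates 1 to 4, against 85.87 to 99.56 CPM at 2 h. Shoot apex and young leaf markers summed to 88.15, 83.39, 26.12 and 43.18 CPM at 4 h, against 37.64 to 47 CPM at 2 h, with none of 9 called (edgeR; 2 at an unadjusted p under 0.05, 1 by DESeq2). Of 6 epidermis and trichome genes ATML1 and TTG1 fell, by 0.92 and 0.60 on the log2 scale, and 2 of 12 histone genes rose. These were 33.3% of the epidermis list (beside 5.79% of all genes) and 16.7% of the histone list (beside 6.34%). Without 4 h replicates 1 and 2, 1 epidermis gene fell, and 1 histone gene rose and 1 fell. PDF1, an epidermal gene of young organs, was at 66.9, 94, 0.351 and 1.03 CPM at 4 h, against 4.94, 0.335, 2.85 and 0.244 CPM at 2 h, and did not pass (adjusted p = 0.149). Of 15 flavonoid genes 4 rose (DFR, F3H, TT4 and FLS1; 26.7%, beside 6.34% of all genes) and none fell, with 11 fold changes above 0 and 4 below. TT4, chalcone synthase, was at 88.4, 50.8, 4.92 and 6.93 CPM at 4 h, against 3.66, 5.36, 6.84 and 5.31 CPM at 2 h. TT4 was high in the first pair of 4 h libraries. The summed level of the list, in which the most abundant members weigh most, was 403.3, 420.7, 290.4 and 181.6 CPM at 4 h, against 295.7, 329.2, 221.1 and 458 CPM at 2 h. Of 11 fasciclin-like cell wall genes FLA7 and FLA13 rose (18.2%, beside 6.34% of all genes), and the median of the 11 was 1.72. That list summed to 150.7, 148.3, 67.12 and 44.52 CPM at 4 h, against 39.27 to 52.16 CPM at 2 h. Without 4 h replicates 1 and 2 no flavonoid, fasciclin-like or cell cycle gene was called higher, 1 flavonoid gene was called lower, and the medians were -0.08, 0.47 and -0.56, against 2.18, 1.72 and 1.74 with every library. Those 2 libraries were picked for their high score over the same cell cycle markers. The lower median of the cell cycle list without them was therefore built into the choice and is no separate result. Without 2 h replicates 2 and 4 these 3 lists held no call, with medians of 1.53, 1.34 and 0.92, while 2 histone genes rose and 1 epidermis gene fell. What part the tissue content of that pair had in other results was not tested. Leaving out single libraries lost CDKB1;1 (6 fits, 0.12), CDKB2;2 (5 fits, 0.105), SYP111 (6 fits, 0.137), AUR2 (without 2 h replicate 2, 0.0531), DFR (6 fits, 0.0895), TT4 (6 fits, 0.118), FLS1 (5 fits, 0.175), FLA7 (6 fits, 0.123), FLA13 (5 fits, 0.157), ATML1 (6 fits, 0.088) and TTG1 (6 fits, 0.145).

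The same hours were compared in WT, whose libraries are not shared with the mutant contrast. There 484 genes rose (2.57% of those tested) and 400 fell (2.12%). Of the 1195 genes risen in grf6 grf8, 380 were called risen in WT too, 31.8% of the mutant list and 78.5% of the WT list. Of the 1091 fallen genes 286 were shared, 26.2% and 71.5%. No gene was called in opposite directions. Fold changes had the same sign in both genotypes for 98.7% of the risen and 98.4% of the fallen genes, beside 78.1% of all tested genes. The genes called in the mutant, which were picked for their change there, had median log2 fold changes of 1.17 (risen) and -0.76 (fallen) in grf6 grf8 and 0.78 and -0.49 in WT. The genes called in WT had medians of 0.99 and -0.79 in grf6 grf8 and 1.05 and -0.86 in WT.

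The difference between the genotypes in the change from 2 h to 4 h was tested directly and no gene passed (edgeR, 0.0% of 18841 called, smallest adjusted p = 0.671). An unadjusted p under 0.05 was found for 411 genes (2.18%), where 5% of the genes tested would be 942.1. DESeq2 called 1 gene, AT4G08170, an inositol phosphate kinase family member (1.19 ± 0.246, adjusted p = 0.0238). It was at 26.18 to 40.82 CPM at 4 h and 32.28 to 46.48 CPM at 2 h in grf6 grf8, and at 28.58 to 35.42 CPM at 4 h and 74.33 to 103.7 CPM at 2 h in WT, so the genotypes overlapped at 4 h and not at 2 h. For AT3G17520 the log2 fold change was 5.59 in grf6 grf8 and 5.82 in WT, and for AOS it was -1.995 and -1.83. For RAB18 it was 2.77 and 2.47, for MYB51 -1.79 and -0.62, and for BRI1 -0.67 and -0.08. The biological coefficient of variation was 40.1% in grf6 grf8 and 46.8% in WT at 4 h, and 23.3% in grf6 grf8 and 36.1% in WT at 2 h. The cell cycle score was 2.21 in WT 4 h replicate 4 and 1.1 in WT 2 h replicate 4, near the scores of mutant 4 h replicates 1 and 2 in the first case, and its part in the WT changes was not tested.

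**Figure D4:**
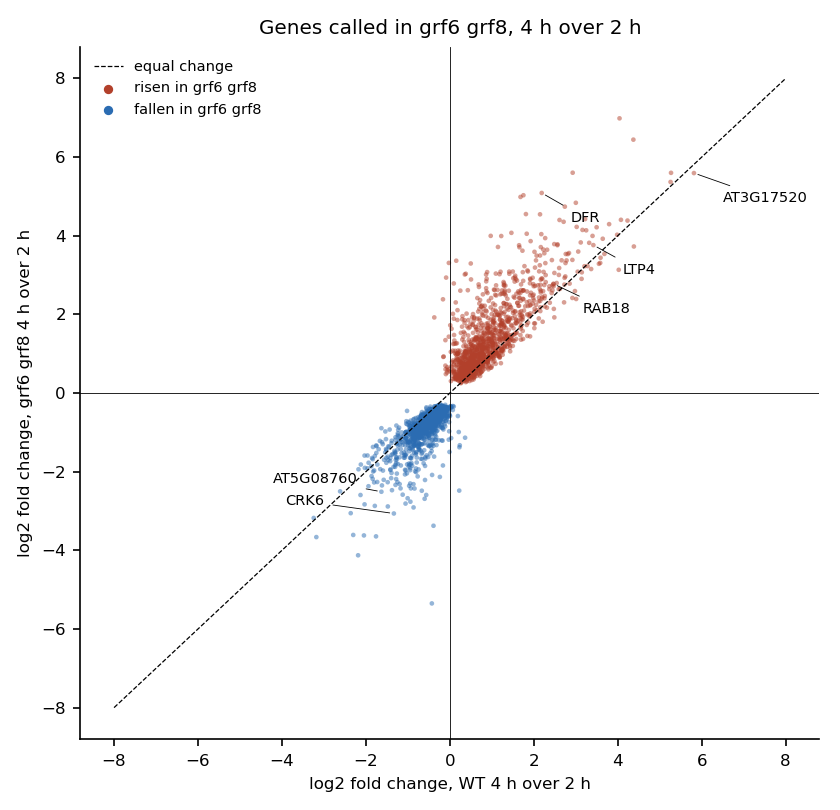
Log2 fold change of 4 h over 2 h in grf6 grf8 (y axis) against that in WT (x axis) for 2285 of the genes called in grf6 grf8 (red risen, blue fallen); 1 gene lies outside the axes and the dashed line marks equal change. Of the risen genes 98.7%, and of the fallen 98.4%, have the same sign in both genotypes; they were picked on the y axis.

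The risen genes had different histories before 2 h. The changes from 0 h to 2 h share the 2 h libraries with the contrast above, so the values are given side by side only. LEA7 averaged 0.173 CPM at 0 h, 65.6 CPM at 2 h and 444 CPM at 4 h, and AT3G02480 0.106, 17.6 and 368 CPM, so both means were higher at each later time. ABI2 averaged 11.9, 202 and 317 CPM, with most of the difference reached by 2 h. OST1 averaged 11, 9.66 and 21.2 CPM, and JAZ7 2.18, 3.62 and 26.2 CPM, higher at 4 h than at either earlier time. EXPA1 averaged 94.1, 12.7 and 34.3 CPM and TCH4 171, 35.4 and 87.8 CPM, lowest at 2 h. Among fallen genes, AOS averaged 144, 891 and 224 CPM and NRT1.7 63.2, 317 and 189 CPM, highest at 2 h. GID1A averaged 50.1, 30.8 and 17.4 CPM and SHY2 166, 65.2 and 28.8 CPM, lower at each step.

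**Figure D5:**
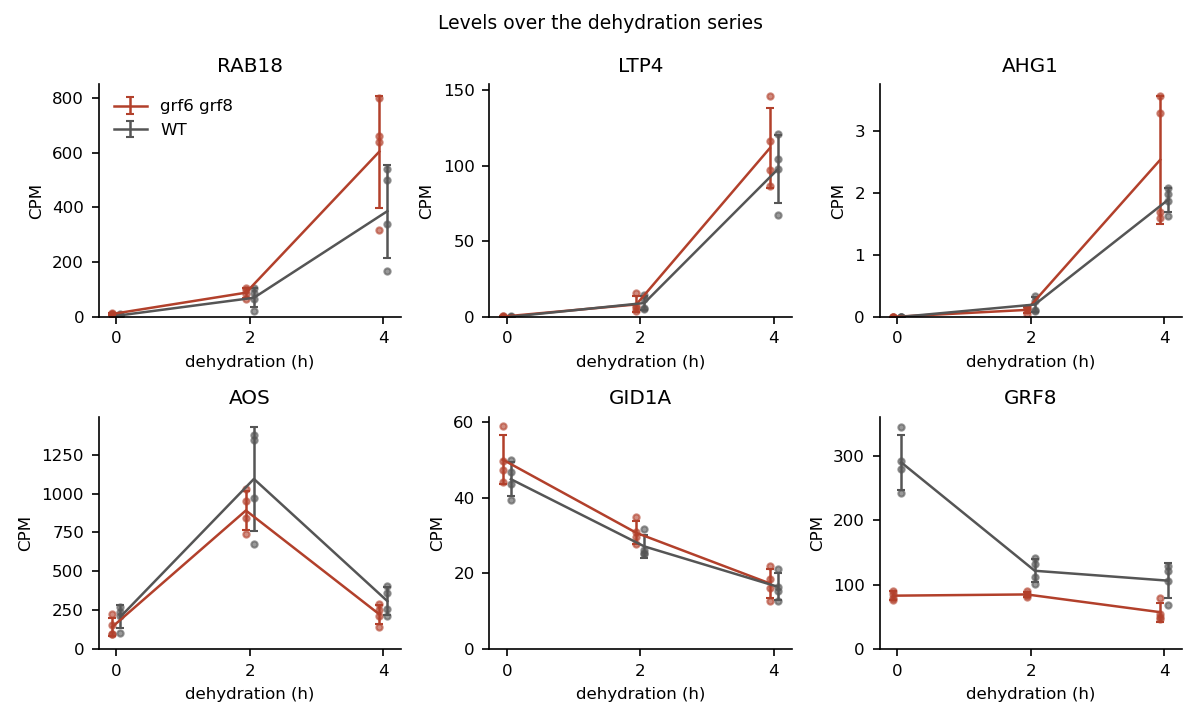
CPM (y axis) of 6 genes at 0, 2 and 4 h of dehydration (x axis) in grf6 grf8 (red) and WT (grey); points are libraries, and lines join means with SD bars (n = 4 each). RAB18, LTP4 and AHG1 climb mainly after 2 h, AOS peaks at 2 h, and GRF8 in WT is the higher line, the mutant standing at 83 CPM against 290 CPM in WT at 0 h.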

How the data were processed

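Messenger RNA was sequenced from rosette leaves, and each library's deposited table gives a read count and an FPKM value per gene. Per the submitters' processing notes the tools included HISAT2, RSEM, StringTie 1.3.1, edgeR, DESeq2, Bowtie2 2.2.8 and fastp 0.18.0, and the genome was TAIR10. Whether the counts are rounded estimates, and whether strand was used, is not given in the sources used here, so overlapping and antisense genes are uncertain. FPKM values, normalized by the authors for length and depth per the file headers, served only for levels between genes.

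The deposited counts of 27664 genes (248 assembled by StringTie, 210 of organelles) were filtered with filterByExpr, scaled by TMM and fitted with edgeR 4.0.16 (R 4.3.3) quasi-likelihood models over all 24 libraries in 6 groups, with an adjusted p under 0.05 as the threshold. CPM values use TMM-scaled sizes. The ± beside a log2 fold change is an approximate standard error, the absolute log2 fold change over the square root of the quasi-likelihood F statistic. For AT4G08170 it is the standard error from DESeq2. DESeq2 1.42.0, other filters and omitted libraries were alternatives. The scripts were tested on simulated data. Names and upstream sequences came from the RefSeq TAIR10.1 annotation by locus, 26719 genes matching; of 783 list entries 13 were dropped because their symbols differed. With 4 libraries against 4, the smallest exact permutation p is 0.0286.

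The members, gene lists and score were chosen with earlier results of these data known. Genes named are the 12 highest and 12 lowest fold changes (called, at least 10 CPM in 1 group, no overlap), up to 4 members per list with the smallest adjusted p, further called members and members of high level or interest, the last 2 kinds chosen after their values were seen, and both mutated genes. Libraries were not paired by replicate number, and whether libraries of the same number belong together is not given in the sources used here.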

Additional observations from a re-analysis of the deposited data

Results flagged for a closer look

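In 11 of 280 groups of 4 libraries examined, 1 library stood far from the other 3, its gap to the nearest divided by the group's range exceeding Dixon's 95% critical value for 4 values; chance gives about 1 in 20 groups. At 4 h, GRF6 was at 63.9 CPM in replicate 4, above 43.7 to 44.8 CPM in the others, and in the same replicate IAA5 was at 10.3 CPM (others 3.16 to 4.25) and PR5 at 36.9 CPM (others 79.8 to 85.3). Replicate 3 at 4 h had EFE at 363 CPM (others 244 to 252), AT3G15670, a LEA gene, at 24.2 CPM (others 12.5 to 13.5) and BAS1 at 2.34 CPM (others 5.16 to 5.58). At 2 h, replicate 3 had IAA29 at 82 CPM (others 52.8 to 57.7), AN3, a growth coactivator gene, at 2.04 CPM (others 0.0958 to 0.167) and TCH4 at 21.1 CPM (others 39.3 to 40.7). Replicate 2 at 2 h had DREB2A at 74.6 CPM (others 56.3 to 58.8) and TIP2;3 at 1.25 CPM (others 0.444 to 0.536).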

How the results depend on the processing

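Counts of risen and fallen genes stayed within 1.5 times of 1195 and 1091 with RLE factors (1167 and 1077), DESeq2 (1775 and 1481), no filter (946 and 1089) and a stricter filter (1031 and 923). They were 724 and 588 with only the 2 groups fitted and 703 and 342 with a 2-fold minimum. Leaving out 1 library gave 622 to 1041 risen and 684 to 1104 fallen genes; without 2 h replicate 1 they were 622 and 696, without replicate 2 723 and 748, and without replicate 4 678 and 684. The alternatives chosen after seeing the data gave 3155 and 2706 without the 5 libraries of highest cell cycle score and 303 and 466 without 2 h replicates 2 and 4. With the score as a covariate the counts were 3130 and 2926, and without 4 h replicates 1 and 2 1217 and 1311. The cause of these shifts was not tested. The difference between genotypes gave 0 genes except for 1 risen with DESeq2 and 1 fallen without 4 h replicates 1 and 2, AT1G25472, listed at 0 counts in 4 h replicates 3 and 4; leaving out 1 library gave 0 to 0. Deviations of same-numbered mutant libraries at 4 h and 2 h had correlations of 0.157, -0.243, -0.333 and 0.0595. These cannot show whether such libraries were handled together. A replicate block in the model gave 971 and 925, with 0 for the difference. Of 135 called genes followed through the omissions, 70 kept their call whichever single library was left out and 65 lost it at least once. PDF1 turned to -1.62 without 4 h replicates 1 and 2, -0.32 with the covariate and -1.56 without the 5 libraries, and AN3 to -0.42 without 4 h replicates 1 and 2 and -0.38 without the 5. At 17.4 to 22.4 M counts, genes below 1 CPM rest on few reads.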
